A study of Danio rerio with 96 samples.

Results

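The 24 samples described here were pools of 10 whole zebrafish embryos, out of 96 samples in the series. They were chosen by their labels: 8 pools came from embryos exposed from 13 December and 16 pools from embryos exposed from 2 November. All embryos of both groups were kept in 0.1% dimethyl sulfoxide (DMSO), the solvent used as vehicle control in chemical testing, for 5 days up to 120 hours post fertilization, and received no other chemical. The series set pools of different size side by side to find a suitable design for later exposure studies. The December pools formed 1 extraction batch, extracted on 18 December, the day their exposure ended. The November pools formed 2 batches of 8, extracted on 23 and 24 November, 16 and 17 days after their exposure ended. Exposure, extraction batch and the delay before extraction therefore cannot be told apart in these 24 samples. The labels name neither the strain nor the clutch or dish behind a pool, so a p-value here reflects only how far these pools scatter, and that scatter may be technical.

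At 120 hours post fertilization a zebrafish has hatched and holds working heart, liver, gut, muscle and nervous tissue, so RNA of whole embryos mixes many cell types. In such bulk samples fewer cells of a type and less RNA per cell cannot be told apart. The assay was TempO-Seq, in which pairs of detector oligonucleotides anneal next to each other on an RNA, are ligated, amplified and counted by sequencing. Each row of the table is thus a probe target. No row names its gene or probe. A feature is therefore identified by the position of its row, with the first row as 1, and the labelled tissue could not be checked against markers, nor are gene groups or sequences given.

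Counts were concentrated in fewer features in December pools than in November pools. Features with at least 5 counts numbered 2767 ± 47.4 in December pools and 3080 ± 33.2 in November pools (SD, n = 8 and 16), with a lowest, median and highest of 2690, 2782 and 2818 in December against 3006, 3084 and 3120 in November. The groups did not overlap, and the difference of -313 had an exact two-sided permutation p of 2.72e-06 (adjusted over 3 library measures 8.16e-06), the smallest that 8 against 16 samples allow. Features below the top 1000 of a sample held 3.22% ± 0.162 of its counts in December, from 3.02% to 3.504%, and 5.83% ± 0.791 in November, from 4.82% to 7.45%. The 10 most abundant features of a sample held 29.6% ± 0.384 in December and 25.5% ± 1.85 in November, where the highest November pool, at 29.6%, reached into the December range (exact permutation p = 1.63e-05, adjusted 2.45e-05). Depth did not part the groups: totals averaged 4495883 ± 488012 counts in December and 4560529 ± 550639 in November (exact permutation p = 0.792, adjusted 0.792), with extremes of 3826634 and 5361803 in December and 3825046 and 5577291 in November. With every sample thinned to 3825046 counts, detected features numbered 2732 ± 38.7 in December and 3069 ± 36.4 in November. It took 428 ± 18.4 features in December and 647 ± 58.6 in November to hold 90% of the counts.

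**Figure D1:**
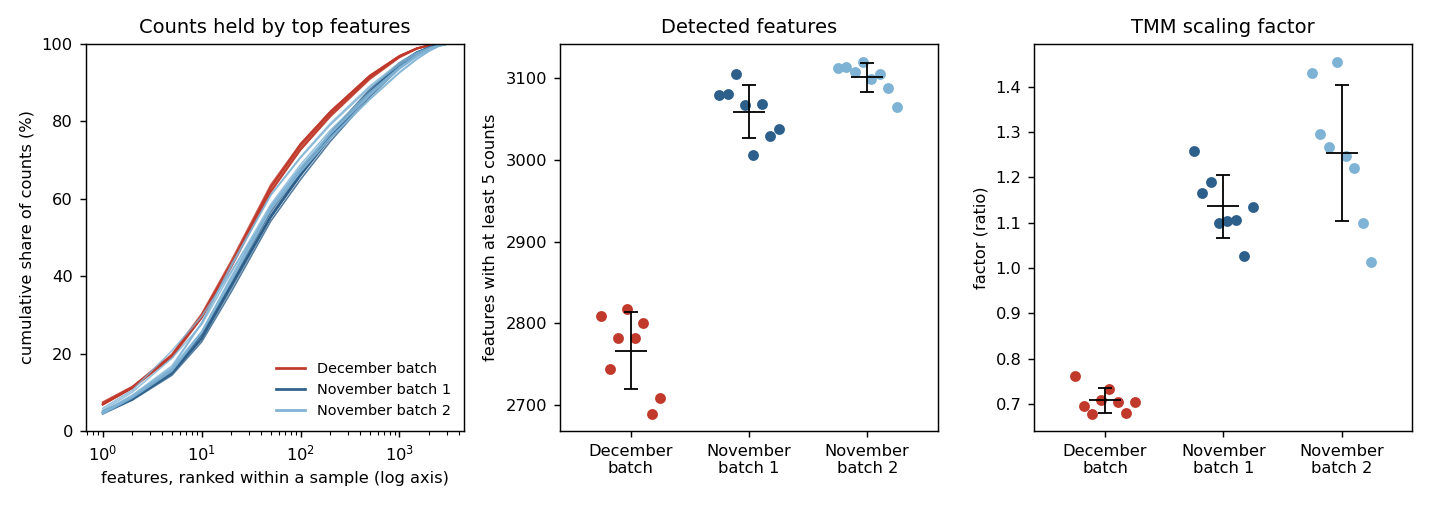
Left, cumulative share of counts (%) against the number of features ranked within each sample (log axis), 1 line per pool; middle, features with at least 5 counts; right, the TMM scaling factor of each pool, with points for pools and bars for the mean ± SD of 8 pools. From rank 50 on the December curves run above the November curves. Before that they cross: at rank 5 pool 4 of November batch 2, at 20.7%, lies above every December pool, the highest at 19.9%. The December pools lie lowest in detected features, at 2690 to 2818, and in scaling factor, at 0.679 to 0.762.

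Because of this concentration the scale on which samples are compared matters. The levels below are counts per 1e6 (CPM) scaled with trimmed means of M values (TMM), which sets the bulk of the features equal between samples. The TMM factors lay between 0.679 and 0.762 in December pools and between 1.01 and 1.46 in November pools. The median log2 difference of December from November over all features was -0.10 with TMM, and library totals alone as the scale moved it by -0.76, upper quartile scaling by -0.36 and cyclic loess by 0.11.

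Most of the panel differed between the 2 exposures. By the quasi-likelihood F test of edgeR with extraction batch as a term, 2383 of 3045 features were called, that is, had a Benjamini-Hochberg adjusted p below 0.05. This is 78.3% of those tested. In December pools 1109 features were higher (36.4%) and 1274 lower (41.8%). Past a 2-fold difference, by edgeR's test against that threshold, 878 were called (28.8%), of which 283 were higher (9.29%) and 595 lower (19.5%). Past 2-fold upper quartile scaling gave 129 higher and 770 lower, and library totals 52 and 1121. The balance of directions depended on the scale: 46.5% of called features were higher with TMM, 29.9% with upper quartile scaling and 15.9% with library totals, where 412 were higher and 2184 lower. Over TMM, DESeq2 size factors, upper quartile and library totals, 412 features were called higher and 1274 lower under each of the 4, and with cyclic loess added 406 higher and 851 lower. Those 412 were all that library totals called higher, and those 1274 all that TMM called lower.

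All of these calls take single pools as replicates. With the batch as the unit, on sums of 1 December batch against 2 November batches, edgeR called 971 features. Single pools stayed the units in a limma fit with the batch as a random effect, which called 1075. It allowed for a correlation of 0.38 within batches, taken as equal for all features. With the sums of all 12 batches of the series and pool size as a covariate, the exposure month was called in 463 of 3169 features. Only pools of 10 were exposed in both months, so this estimate too compares 1 December batch with 2 November batches. Batches of the other pool sizes enter only through the scatter and the scaling. Of the features named below, 21 of 35 lost their call in that last fit. Features 1093, 966, 321, 1394, 1460 and 1606 kept it, with edgeR adjusted p from 0.00399 to 0.0462, as did features 1290, 2323, 2325, 2926, 2445, 2172 and 2461.

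In 540 features (17.7%) every December pool lay above every November pool, and in 422 (13.9%) every December pool lay below, 962 in all (31.6%). With library totals as the scale these numbers were 147 and 1125. The 147 and the 422 held on both scales, which was fixed in advance, because every December TMM factor was below every November factor.

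The direction of a difference followed the abundance of the feature. Of 714 features with a mean level under 10 CPM, 535 were lower in December and 36 higher, with a median log2 difference of -1.62. Between 10 and 30 CPM 379 of 690 were lower and 119 higher, with a median of -0.48. With TMM the balance turned above 30 CPM, where 222 of 741 features up to 100 CPM were lower and 334 higher, with a median of 0.14. From 100 to 300 CPM 316 of 510 were higher and 100 lower, from 300 to 1000 CPM 184 of 249 were higher and 27 lower, and over 1000 CPM 120 of 141 were higher and 11 lower, with medians of 0.42, 0.70 and 0.82. The counts of calls in a class are to be read against 36.4% higher and 41.8% lower over all features. Upper quartile scaling and library totals kept the order of these medians. With library totals they ran from -2.37 under 10 CPM to 0.08 over 1000 CPM. The level at which the median turned depended on the scale. Between 30 and 100 CPM it was -0.21 with upper quartile scaling and -0.61 with library totals. With library totals it was still -0.04 between 300 and 1000 CPM. A loess fit against abundance removes such a trend by construction and left a median of 0.03 under 10 CPM. That fit was run on log2 CPM with a prior count of 2, which by itself shrinks differences of faint features.

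In shares of the library, which need no scaling, features under 10 CPM held 0.160% ± 0.0154 of the counts in December pools and 0.663% ± 0.241 in November pools. Their highest December share, 0.178%, was below the lowest November share, 0.375%. Features over 1000 CPM held 77.6% ± 0.588 in December, from 76.8% to 78.2%, and 71.5% ± 1.51 in November, from 68.7% to 74.9%. Classes set from the levels in pools of 20 or of 5 embryos, which take no part in the comparison, gave the same order of medians, from -1.54 to 0.72 and from -1.73 to 0.88.

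**Figure D2:**
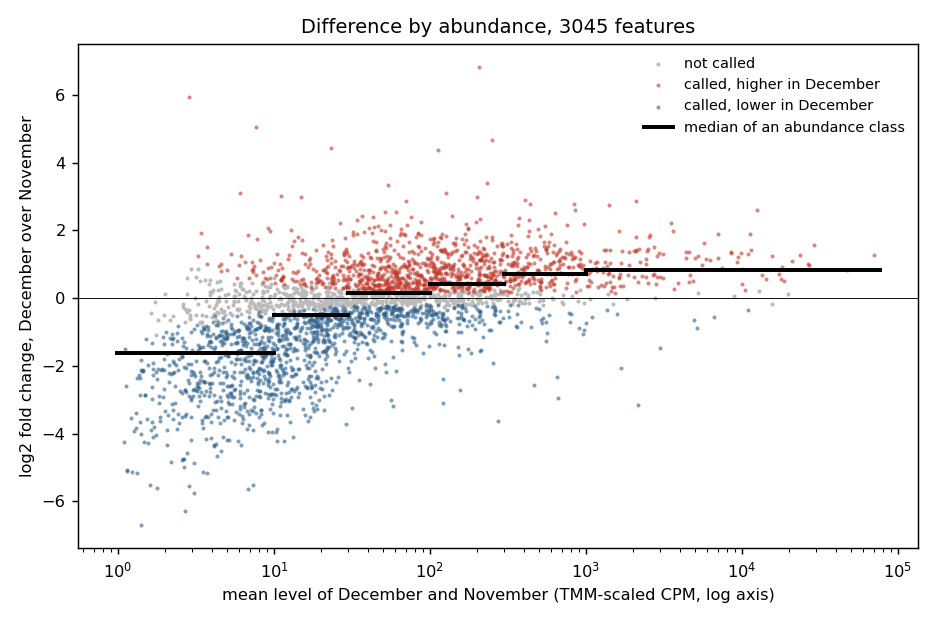
Log2 fold change of December over November against the mean level of both groups (TMM-scaled CPM, log axis) for 3045 features, coloured by call, with black lines at the median of each abundance class. The medians climb from -1.62 under 10 CPM to 0.82 over 1000 CPM.

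Against this background single features stood far out on the higher side. Features 1093, 966, 1779, 321, 1394, 1460, 1606 and 106 were chosen among those without overlap between the groups, so their lack of overlap is no result. Feature 1093 had levels of 227, 407 and 639 CPM (lowest, median and highest) in December pools and 1.83, 3.63 and 5.18 CPM in November pools. The faintest December pool was thus more than an order of magnitude above the strongest November pool. Its mean was 410 ± 159 CPM in December and 3.56 ± 0.848 CPM in November (SD, n = 8 and 16), a log2 difference of 6.83 ± 0.17 (SE), or 114-fold, with an edgeR adjusted p of 1.5e-24. In the fit of the 12 batch sums its adjusted p was 0.0462. In raw counts it had 763 to 2136 per December pool and 9 to 29 per November pool.

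Feature 966 had 353, 486 and 578 CPM in December and 8.95, 16.0 and 31.2 CPM in November. Its log2 difference was 4.66 ± 0.18 (SE; edgeR adjusted p = 2.8e-19). Feature 1779, fainter, had 20.6, 48.2 and 60.4 CPM in December and 0, 1.51 and 7.29 CPM in November, with a log2 difference of 4.43 ± 0.39. November pools of this feature held 0 to 34 counts. Both extremes lay in November batch 2, in pools 1 and 5, at totals of 4170341 and 4064637 counts. The pools thus differed by more than their depth, and the November level of this feature is poorly fixed.

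Feature 321 had 143, 201 and 307 CPM in December against 2.99, 7.66 and 25.6 CPM in November. Feature 1394 had 366, 436 and 456 CPM in December against 23.3, 34.5 and 88.1 CPM in November. Feature 1394 was the more even within December, with an SD of 29.7 CPM around a mean of 426 CPM, while feature 321 had an SD of 56.5 CPM around 215 CPM. Their log2 differences were 4.39 ± 0.24 and 3.41 ± 0.15.

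Feature 1460 had 71.2, 100.2 and 126 CPM in December and 4.72, 9.99 and 15.8 CPM in November, 10.1-fold higher in December. Feature 1606 had 191, 231 and 249 CPM in December and 13.8, 27.3 and 41.9 CPM in November, 8.57-fold higher. Feature 106 had 241, 342 and 482 CPM in December and 8.08, 45.5 and 134 CPM in November, 7.95-fold higher. That the groups did not overlap in any of these 3 was a condition of their choice. The November batches themselves parted in 2 of them: feature 1606 averaged 18.0 ± 2.51 CPM in batch 2 and 38.7 ± 3.40 CPM in batch 1, and feature 106 averaged 24.8 ± 12.5 and 78.2 ± 29.5 CPM (SD, n = 8 each), so that the fold of feature 106 was set in part by which November batch it was measured from. Against batch 2 its log2 difference was 3.83 and against batch 1 it was 2.15. With library totals as the scale these 8 features, the largest rises among 532 that met the naming rule, had log2 differences from 2.27 to 6.07. That they stayed higher is no result: this scale moved the median difference by -0.76, and the smallest of the 8 rises was 2.99 with TMM.

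The 8 features named for the largest falls were all faint in November and near the detection limit in December. They reached the mean count of 50 that the naming rule asked for through November pools only. No December pool held more than 11 counts of any of them. Feature 306 had 0, 0.149 and 1.11 CPM in December and 1.307, 14.9 and 31.05 CPM in November. December pools held 0 to 3 counts of it, 7 in all, and November pools 8 to 135. Its fitted log2 difference of -5.52 ± 0.52 (edgeR adjusted p = 6.5e-11) rests on those 7 counts, and with the 12 batch sums the adjusted p was 0.0990.

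Feature 2982 had 0.598, 1.46 and 2.12 CPM in December and 11.1, 24.5 and 45.2 CPM in November. It was found in every December pool, at 2 to 8 counts, and every November pool held at least 53. The log2 difference was -4.09 ± 0.22 (edgeR adjusted p = 1.8e-16, and 0.130 with the 12 batch sums). Feature 2044 followed closely, with 0.298, 0.861 and 2.77 CPM in December and 9.15, 22.6 and 38.8 CPM in November.

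Features 1057, 1290, 3157, 2921 and 1453 had December medians from 0.286 to 1.11 CPM and November medians from 12.1 to 18.6 CPM, with log2 differences from -4.22 to -3.88. After cyclic loess the falls were smaller, at -2.60 for feature 306, -2.76 for features 2982 and 2044, and -2.77 to -2.23 for these 5. The prior count of 2 in that fit shrinks such falls too, and its part was not separated from that of loess. That no December pool reached the lowest November pool in any of the 8 was a condition of their choice. In each of the 8 November batch 2 had a higher mean than November batch 1, for example 33.6 ± 6.47 and 16.9 ± 4.02 CPM for feature 2982 (SD, n = 8 each). The limit that 3 counts set was 0.560 to 0.784 CPM of the library total per December pool and 0.538 to 0.784 CPM per November pool. On the TMM scale of the levels above, it was higher in December pools. There 3 counts were, for example, 0.897 CPM in December pool 4 and 1.11 CPM in December pool 8. They were 0.490 CPM in pool 6 of November batch 1 and 0.688 CPM in pool 7 of November batch 2. The limit covers counting error only, since reads carry no molecular identifiers.

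**Figure D3:**
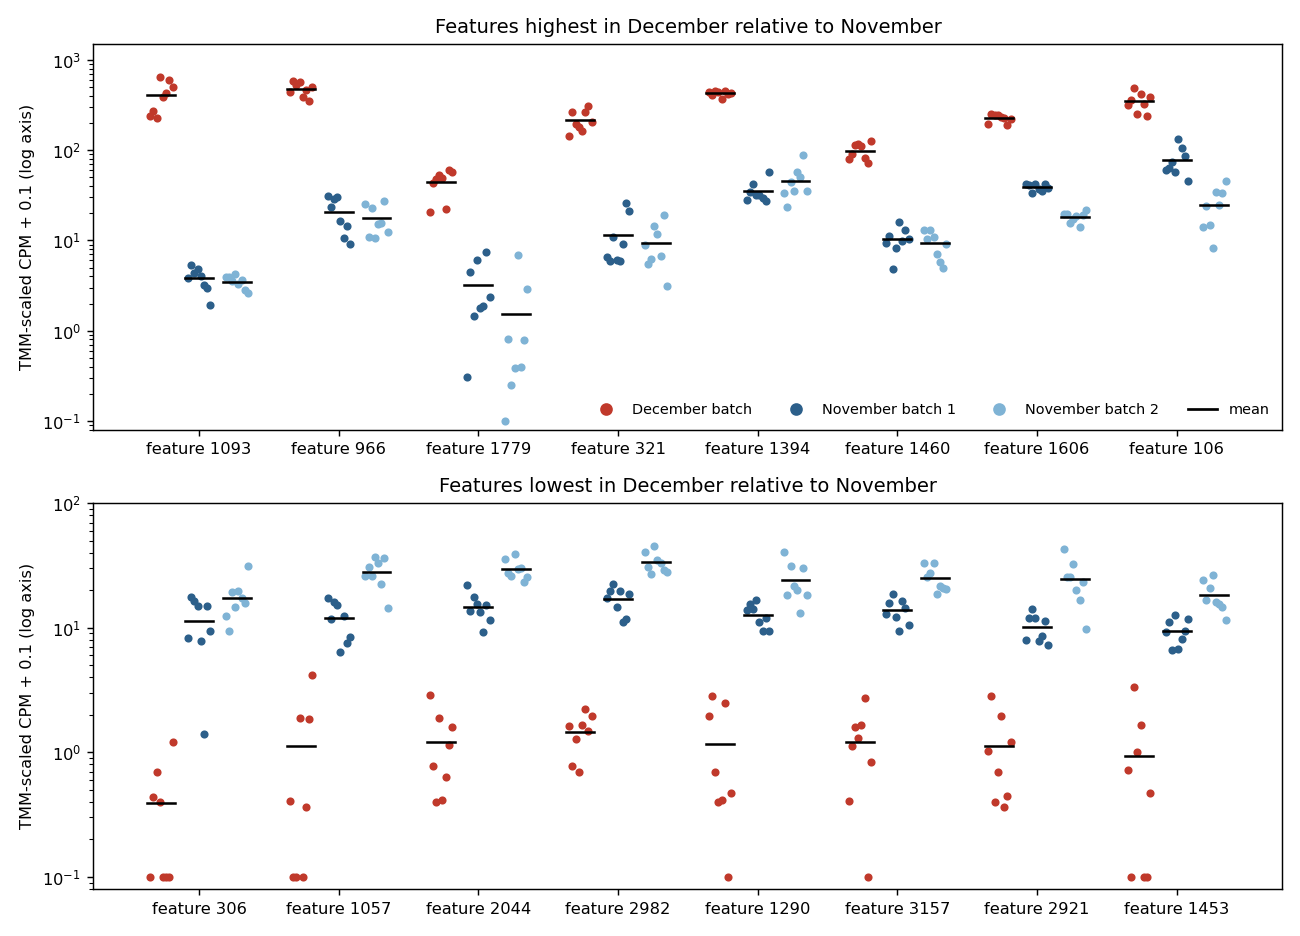
Levels of the 8 features with the largest rise (top) and the 8 with the largest fall (bottom) among those without overlap, in TMM-scaled CPM plus 0.1 on a log axis, 1 point per pool, with December left of November batches 1 and 2 and a bar at each mean. December points of feature 1093 lie between 227 and 639 CPM, all above its November points at 1.83 to 5.18 CPM.

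Few features parted the groups by detection at 5 counts, and almost all of these were detected in November. After thinning to a common depth, 33 of 3183 features had at least 5 counts in all 16 November pools and fewer than 5 in all 8 December pools. The opposite pattern was shown by 1 feature, while 2400 had at least 5 counts in all 24 pools. Features 306, 308 and 2172 were the most abundant of the 33. Feature 308 had 0, 0 and 1.11 CPM in December, 6 counts in all, and 1.96, 14.8 and 21.6 CPM in November. Feature 2172 had 0, 0.421 and 1.11 CPM in December and 5.07, 9.97 and 22.3 CPM in November. The single feature in the other direction was 1524, with 3.75, 5.39 and 9.01 CPM in December, at 11 to 34 counts, and 0, 0 and 0.829 CPM in November, where a pool held at most 4 counts. Over the whole panel 2427 features reached 5 counts in every December pool and 2860 in every November pool.

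Measured in CPM rather than as a ratio, the largest differences belonged to abundant features. Feature 2323, first by level, had 89046, 99405 and 110345 CPM in December and 30428, 40678 and 50643 CPM in November. It took 7.04% ± 0.259 of the counts in December and 4.84% ± 0.387 in November (SD, n = 8 and 16). The log2 difference was 1.29 ± 0.08 with TMM (edgeR adjusted p = 1.0e-14) and 0.54 with library totals.

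Feature 2325 had 37957, 44158 and 45654 CPM in December and 5652, 14393 and 20953 CPM in November, 3.00-fold higher in December. Feature 2926 had 27453, 34422 and 38180 CPM in December and 3975, 14990 and 20028 CPM in November, 2.43-fold higher. Neither overlapped between the groups with TMM. With library totals feature 2926 did overlap. December pool 4 held 91826 of its 4724287 counts in it, a smaller share than the 94206 of 4170341 in pool 1 of November batch 2. Their log2 differences of 1.58 and 1.28 with TMM were 0.85 and 0.54 with library totals and 0.66 and 0.40 after cyclic loess. Feature 2293 had 56426, 60104 and 64061 CPM in December and 28630.0, 33228 and 42477 CPM in November, 1.77-fold higher with TMM, while its log2 difference was 0.08 with library totals (edgeR adjusted p = 0.109) and -0.19 after cyclic loess (limma adjusted p = 0.0262).

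The 4 features with the largest falls in CPM, 1473, 554, 2588 and 2707, were lower in December with TMM, upper quartile scaling, library totals and cyclic loess alike. Upper quartile scaling and library totals move differences further down, so of these scales only cyclic loess could have turned the falls. Feature 1473 had 263, 433 and 522 CPM in December and 2153, 3733 and 7031 CPM in November, 8.89-fold lower in December (log2 difference -3.15 ± 0.16; edgeR adjusted p = 3.9e-17, and 0.0702 with the 12 batch sums). The pools did not overlap, and the log2 difference was -3.93 with library totals and -3.88 after cyclic loess. Feature 2588 had 1476, 1572 and 1681 CPM in December and 3312, 4377 and 6925 CPM in November, 2.75-fold lower. Its December pools were close together, with an SD of 86.05 CPM around 1586 CPM.

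Feature 554 had 3238, 3407 and 4349 CPM in December and 3963, 6515 and 9758 CPM in November, 1.84-fold lower with some overlap. Its November batches differed, at 4997 ± 582 CPM in batch 2 and 8587 ± 793 CPM in batch 1, and its December level lay below both. Feature 2707 had 7346, 9705 and 10781 CPM in December and 6316, 12837 and 15617 CPM in November. It was called at a log2 difference of -0.35 ± 0.11 (edgeR adjusted p = 0.00434), but without November batch 1 the value was -0.23 with an adjusted p of 0.141.

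The November batches share 1 exposure, so they differ in extraction batch and, by 1 day, in delay. Between November batch 2 and November batch 1 the same fit called 1382 features (45.4%), 661 higher in batch 2 (21.7%) and 721 lower (23.7%), with a median absolute log2 difference of 0.37. This balance turned under these other scalings and under DESeq2: 790 were higher and 606 lower with DESeq2 size factors, 863 and 629 by DESeq2's own test, 1316 and 316 with upper quartile scaling, and 904 and 504 with library totals. December differed from batch 2 in 2389 features (78.5%), 1120 higher (36.8%) and 1269 lower (41.7%), with a median absolute difference of 0.88. It differed from batch 1 in 2144 (70.4%), 950 higher (31.2%) and 1194 lower (39.2%), with 0.64. These 2 comparisons share the December pools. In 2354 of the 2383 called features the December mean lay outside the interval between both November batches, and in 2140 it was farther from the November mean than the batches were from each other; among all features tested these numbers were 2712 and 2339. Samples 5 to 8 of November batch 1 stood apart from samples 1 to 4: the coefficient of variation between pools of that batch, from edgeR's common dispersion, was 20.2%, and 15.9% with the 2 sets of samples given means of their own. Without samples 5 to 8, 719 features were called between the November batches, and 2370 between December and November.

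Pools of 20 embryos offer a comparison in which the exposure did not change. Their 3 batches were all exposed from 4 November, and 1 was extracted on 15 December, 36 days after the exposure ended, against 23 and 24 November for the others. In a joint fit of the 48 samples over 3096 features, the December batch differed from the November batches in 2470 features in pools of 10 (79.8%) and in 1684 in pools of 20 (54.4%). No library is shared between these comparisons. Across the 3096 features the log2 differences correlated at a Pearson r of 0.72, given as a description, since features of a panel share their libraries and scaling. The typical difference was larger in pools of 10, with a median absolute log2 value of 0.75, than in pools of 20, with 0.34.

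The test of the difference between both shifts called 1885 features (60.9%), 885 (28.6%) with the pools of 10 shifted upward relative to the pools of 20 and 1000 (32.3%) downward. Among features called in pools of 10, 724 (29.3%) had no called difference of shifts, where 60.9% of all 3096 features had a called one. Features called in the same direction in both pool sizes numbered 1299, which is 52.6% of those called in pools of 10 and 77.1% of those called in pools of 20. Another 150 were called in opposite directions. These shares are to be read against 79.8% of all features called in pools of 10 and 54.4% in pools of 20. By direction, 36.3% of all features were called higher and 43.5% lower in pools of 10, and 24.4% and 29.97% in pools of 20. Whether more features were called in both than these rates give was not tested. The trend with abundance was present in pools of 20 at a smaller size, with medians from -0.64 under 10 CPM to 0.25 over 1000 CPM.

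**Figure D4:**
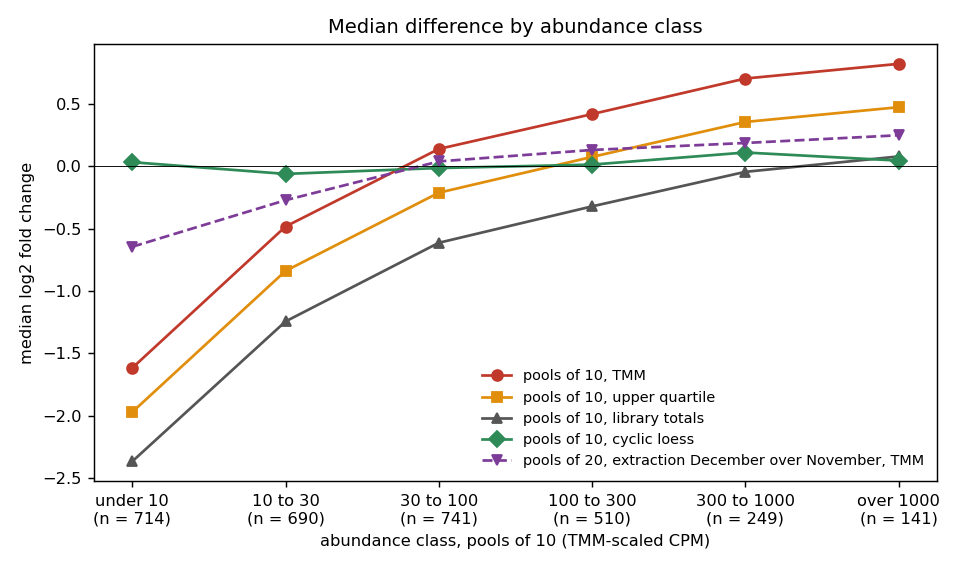
Median log2 fold change of each abundance class (TMM-scaled CPM) for December over November pools of 10 under 4 scalings (solid lines) and for pools of 20 extracted in December over November (dashed line). With TMM the medians run from -1.62 to 0.82 in pools of 10 and from -0.64 to 0.25 in pools of 20, and cyclic loess brings them close to 0.

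The named features fell into distinct patterns here. Feature 1093 was high in December-extracted pools of 20 too, at 241 ± 61.6 CPM in the December batch and 3.02 ± 0.793 and 5.73 ± 3.05 CPM in November batches 1 and 2 (SD, n = 8 each). Its log2 shift was 5.83 there, 0.98 ± 0.27 (SE) smaller than in pools of 10 (edgeR adjusted p = 0.00179). Feature 1779 likewise had 34.6 ± 11.9 CPM in the December batch of pools of 20 and 3.07 ± 2.54 and 1.101 ± 1.14 CPM in the November batches. Its difference of shifts, 0.25 ± 0.58, did not pass the test (adjusted p = 0.725).

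Feature 1394 did the opposite. In pools of 20 it had 42.4 ± 7.25 CPM in the December batch and 50.3 ± 4.75 and 35.4 ± 7.38 CPM in the November batches, a shift of -0.01 that was not called (edgeR adjusted p = 0.979). The difference of shifts was 3.40 ± 0.19 (adjusted p = 1.3e-20). Feature 966 had 39 ± 15.3 CPM in the December batch of pools of 20 and 24.5 ± 6.29 and 21.1 ± 7.01 CPM in the November batches, so its shift of 0.77 was 3.88 ± 0.28 smaller than in pools of 10 (adjusted p = 6.0e-17).

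Feature 2347 moved both ways. In pools of 10 it had 5.90, 17.9 and 25.7 CPM in December and 0.503, 7.92 and 26.4 CPM in November, and in pools of 20 it averaged 1.16 ± 1.34 CPM in the December batch against 11.8 ± 5.02 and 7.99 ± 2.49 CPM in the November batches. The difference of shifts was 4.33 ± 0.53 (edgeR adjusted p = 1.1e-09). In pools of 10 alone its groups overlapped, and without November batch 2 its log2 difference was 0.45 with an adjusted p of 0.194.

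On the lower side features 2745, 1660 and 2445 had the most negative difference of shifts, between -4.94 and -4.86. Each had a single count in the 8 December pools of 10, and 472, 196 and 278 counts over the 16 November pools. The ratio of November over December for feature 2745 was 138, with an exact 95% counting interval from 24.6 to 5453, so the size of these falls is not fixed at this depth. After cyclic loess the log2 differences of features 1660 and 2445 were 0.27 and -0.29 and not called (limma adjusted p = 0.401 and 0.402), and that of feature 2745 was -1.16, against -6.29 with TMM. The loess values carry a prior count of 2 and the TMM values come from edgeR's count fit. With a single December count the prior alone shrinks these falls strongly. In pools of 20 the December batch still averaged 1.302, 1.55 and 1.46 CPM of them.

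Feature 2588 had no called shift in pools of 20, at 0.18 (edgeR adjusted p = 0.0524), with 4983 ± 528 CPM in the December batch and 4431 ± 159 and 4287 ± 235 CPM in the November batches. Its difference of shifts was -1.65 ± 0.12 (adjusted p = 2.3e-17). Feature 2926, too, was not called in pools of 20, at 0.07 (adjusted p = 0.687), with a difference of shifts of 1.19 ± 0.20. The December batches of both pool sizes differ in exposure, in extraction day and in a delay of 0 against 36 days, which cannot be told apart.

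**Figure D5:**
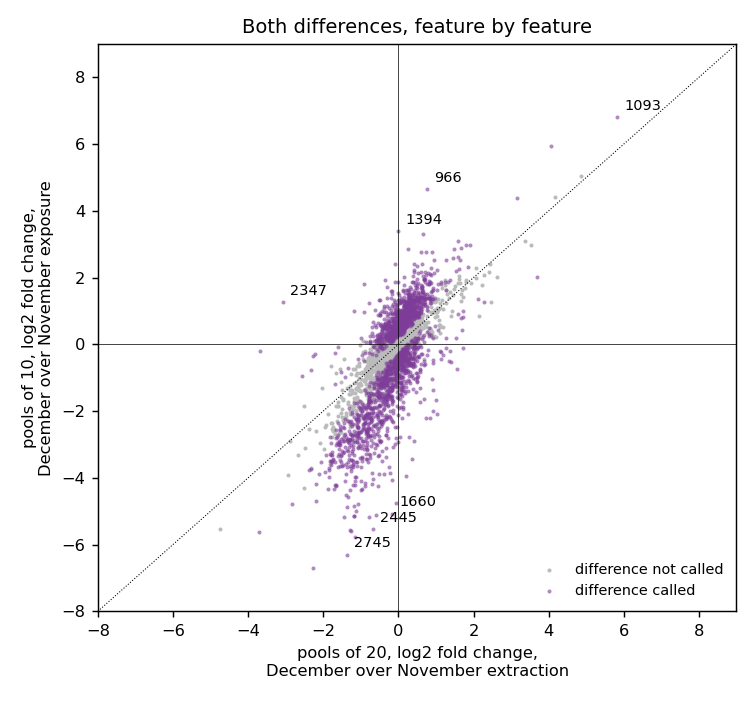
Log2 fold change in pools of 10, December over November exposure (vertical axis), against that in pools of 20, December over November extraction (horizontal axis), for each feature, with purple points where the difference of both shifts was called and a dotted line where they are equal. Feature 1093 lies far out on both axes, and features 966 and 1394 only on the vertical one, at shifts of 0.77 and -0.01 in pools of 20.

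Most features that were higher or lower in December pools of 10 lay on the same side in other libraries exposed or extracted in December. Set against pools of 20 extracted in November, pools of 5 exposed from 12 December were higher in 1067 of the 1109 features that were higher in December pools of 10 (96.2%), and in 81 of the 1274 that were lower (6.36%), where 47.9% of all tested features were higher. Single embryos of the 13 December exposure, set against the same pools of 20, were higher in 1004 (90.5%) and in 95 (7.46%), with 46.04% over all features. Pools of 20 exposed in November but extracted in December were higher in 873 (78.7%) and in 211 (16.6%), with 45.5% over all features. These 3 comparisons share the November-extracted pools of 20. In the first and second, pool size, extraction batch, extraction month and delay all change with the exposure. Those pools of 5 and single embryos were extracted 0 days after exposure, the reference pools of 20 after 14 and 15 days. These differences cannot be told apart.

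Levels of single features varied widely among the December-exposed libraries. Feature 1606 had 235 ± 45.2 CPM in single embryos of 13 December (SD, n = 8), beside 226 ± 22.1 CPM in the pools of 10 of that exposure. Feature 1394 had 61.7 ± 77.8 CPM in those single embryos, beside 426 ± 29.7 CPM in the pools of 10. In the 12 December exposure it averaged 331, 379 and 331 CPM in the 3 batches of pools of 5 and 268 and 210 CPM in the single-embryo batches. Feature 966 had 58.6 ± 74.7 CPM in single embryos of 13 December, beside 480 ± 82.9 CPM in the pools of 10. In the 12 December exposure its batch means were 153, 196 and 422 CPM in pools of 5 and 172 and 199.96 CPM in single embryos.

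Most features were less spread between December pools than between November pools, though few passed a test: 37.7% of 2403 features had the larger spread in December, and 20.1% of the 1401 with a mean count of at least 200. Without November batch 2 the first share was 50.3%. The common biological coefficient of variation, the square root of edgeR's dispersion within a batch, was 16.5% in the December batch and 20.2% and 25.5% in November batches 1 and 2, and this difference between batches was not tested. By limma on absolute deviations from the batch mean, 41 of 2403 features (1.71%) were more spread in December and 6 (0.250%) less, but without November batch 1 that test called 0 in either direction, with 566 at an unadjusted p under 0.05 (571 with both November batches). At a mean count of at least 200 it also called 0 in either direction. The features with the largest increase on the log2 scale, 2439 and 2461, were also lower in December: 2439 had 0, 1.91 and 7.16 CPM in December and 9.74, 19.3 and 48.2 CPM in November, and 2461 had 0, 2.09 and 9.82 CPM in December and 12.1, 23.5 and 38.1 CPM in November. December pools held 0 to 27 counts of feature 2439 and 0 to 33 of feature 2461. Both thus reached the mean count of 50 through November pools only. At so few counts counting error by itself widens the spread on the log2 scale, and its part was not tested. Among those less spread, feature 1126 had 19.9, 25.2 and 31.5 CPM in December and 4.13, 16.3 and 41.9 CPM in November, with no called difference in level (edgeR adjusted p = 0.180). Feature 2197 had 32.6, 45.4 and 71.2 CPM in December and 4.88, 10.8 and 31.5 CPM in November, 3.64-fold higher in December. In both, the samples of November batch 1 that stood apart were low: samples 5 to 8 lay between 5.39 and 8.34 CPM and samples 1 to 4 between 12.1 and 41.9 CPM for feature 1126, and between 4.88 and 7.52 CPM and between 18.3 and 31.5 CPM for feature 2197. Without those samples 19 features were more spread in December and 3 less.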

How the data were processed

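The authors deposited raw counts per feature, whole numbers with no normalization, for 96 libraries in 3183 unnamed rows. The submitters' processing notes list DESeq2 1.31.15, RSEM 1.3.3, STAR 2.7.10a, fastp 0.23.2 and bcl2fastq 2.20, without saying what each did. Genome build, annotation and counting step: not given in the sources used here. Groups came from sample titles and the labelled exposure and extraction dates. Rows with low counts were removed with edgeR's filter, leaving 3045 features for the pools of 10.

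Tests used edgeR 4.0.16 (quasi-likelihood, TMM, 1 mean per batch; the contrast is the December batch minus the mean of both November batches), limma 3.58.1 and DESeq2 1.42.0 in R 4.3.3, with Benjamini-Hochberg adjustment over all features tested. SE is the log2 difference over the root of F. Spread was tested on log2 CPM (prior count 2) where the mean count reached 50. Cyclic loess used log2 CPM with the same prior count, followed by limma. Library measures were tested with exact permutation tests. Levels of pools of 1, 5 and 20 were TMM-scaled to the same library as the pools of 10.

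The tests were checked on simulated counts without batch effects and with as many features raised as lowered. That check therefore says nothing about differences between batches or about the choice of scale. No 2 of the 24 pools of 10 were identical, and their 84 pairs within a batch had a chi-square of at least 9.77 per degree of freedom.

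Features were named by rule. The first took the 8 largest rises and falls without overlap and with a mean count of at least 50. Others took the 4 largest changes in CPM, the 3 largest differences of shifts and the 2 largest changes in spread each way. A further rule asked for at least 5 thinned counts in all pools of 1 exposure and fewer than 5 in every pool of the other. Of these, up to 3 each way were named, the most abundant first. Groups, rules and tests were chosen with earlier results of these data known. Alternatives were other scalings, tests, filters, units of replication and left-out samples.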

Additional observations from a re-analysis of the deposited data

Results flagged for a closer look

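Among 114 groups of 8 pools tested for a pool far from the others, 9 were marked. Chance marks about 1 in 20 if values are normally distributed, which CPM of faint features need not be. That rate does not apply to features 2745, 1660 and 2445 in December, where a single count among zeros is marked by construction. In December these were 1 pool of feature 1057 at 4.07 CPM, 1 of feature 2707 at 7346 CPM, and the single pools that held the only count of features 2745 (0.299 CPM), 1660 (0.311 CPM) and 2445 (0.311 CPM). In November batch 1 they were feature 2293 at 28630.0 CPM and feature 2347 at 26.4 CPM, and in batch 2 feature 1779 at 6.71 CPM and feature 306 at 31.05 CPM.

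The shift from November to December differed between pools of 10 and pools of 20 in 1885 features by edgeR's test of the difference. The largest differences of log2 shifts, pools of 10 minus pools of 20, were 4.33 for feature 2347, 3.88 for feature 966 and 3.40 for feature 1394, and -4.94, -4.91 and -4.86 for features 2745, 1660 and 2445.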

How the results depend on the processing

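The call of most features between December and November rests on single pools as replicates. With single pools 2383 of 3045 features tested were called (1109 higher, 1274 lower). The same contrast on batch sums called 971 of 3162 tested (417 and 554). The 12 batch sums with pool size called 463 of 3169 (324 and 139). With batch as a random effect, limma called 1075 of 3045 (619 and 456). Fewer units are tested in the 2 fits of batch sums, while the limma fit kept single pools and a shared correlation within batches. The counts of these 3 fits are totals over the features each tested, not parts of the 2383. Library totals gave 412 higher and 2184 lower, and upper quartile scaling 724 higher. The same scales gave 328 higher and 2148 lower against November batch 1 (totals), 455 and 2125 against batch 2 (totals), 705 higher against batch 2 (upper quartile), 52 and 1121 past 2-fold (totals), 129 higher past 2-fold (upper quartile), and 363 and 1698 for the difference from pools of 20 (totals). Between the November batches upper quartile scaling gave 1316 higher and 316 lower, and leaving out samples 5 to 8 of batch 1 gave 719 (292 and 427). Leaving out each pool in turn gave 2348 to 2400 called, 1057 to 1115 higher and 1260 to 1314 lower. More and less spread features by limma numbered 19 and 3 without samples 5 to 8 of batch 1, 0 and 0 without November batch 1, 1 and 4 without November batch 2, and 0 and 0 at a mean count of at least 200 (326 at an unadjusted p under 0.05). Cyclic loess, added after the data were seen as were all upper quartile and totals values outside the main comparison, turned feature 2293 to -0.19 and feature 1660 to 0.27. With the 12 batch sums 21 of 35 named features lost their call, among them 1779 and 106 of the 8 largest rises and 7 of the 8 largest falls. The cause of these changes was not tested.

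Pools of different batches share the numbers 1 to 8. Deviations of same-numbered pools correlated at a median of 0.05, from -0.11 to 0.42, and 8 of 24 pools correlated best with their own number, a hint from the data that a number may mark something shared. The labels do not say so, and not every pair correlated above 0.1, so pools were not taken as pairs. With the number as a replicate block 2394 features were called.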

Other observations

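Features 306 and 308, 2 rows apart in the table, had batch means that moved alike over the 12 batches of the series, a pair chosen after its values were seen. In the December pools of 10 they averaged 0.293 and 0.254 CPM, against 17.3 and 17.2 CPM in November batch 2 and 11.2 and 9.77 CPM in November batch 1. In pools of 20 they averaged 0.590 and 1.09 CPM in the batch extracted in December, against 20.7 and 18.1 CPM and 12.1 and 11.0 CPM in November batches 2 and 1. Pools of 5 had between 0.240 and 0.405 CPM of either, while single embryos averaged 4.13 and 6.07 CPM in the 13 December exposure, and 0.191 and 0.524 CPM and 7.42 and 3.54 CPM in the 12 December batches.

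Depth followed the sample number. Number 6 had the highest total of its batch in 12 of 12 batches, at 1.20 ± 0.045 times the batch mean (SD, n = 12), and number 3 was among the top 2 in 11 of 12, at 1.11 ± 0.037 times. Number 6 held 5361803 counts in the December batch, and 5532750 and 5577291 in November batches 1 and 2. This was noticed after the data were seen.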
